A study of Mus musculus with 24 samples.

Results

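The 36 genes described here encode the proteins that form, restrain and dissolve blood clots, and they were read in whole livers of mice given an overdose of acetaminophen (APAP). They were chosen by symbol, as a fixed list of coagulation and fibrinolysis genes. All 36 symbols were among the 50657 genes of the count tables, and 34 had a mean of at least 0.5 CPM (counts per 1000000, after scaling of the libraries) over the 24 libraries. Plat at 0.216 CPM and Plau at 0.266 CPM lay below that minimum, and Plaur at 0.521 CPM and F3 at 1.29 CPM lay just above it. Of the 34, 33 passed the low-count filter of the test across genes, which kept 13204 genes. Plaur did not pass it.

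Clotting runs as a cascade of proteases that starts from tissue factor or from contact activation, and that ends with thrombin cutting fibrinogen into fibrin. Antithrombin, heparin cofactor II and the protein C system hold thrombin back, and plasmin, made from plasminogen, dissolves the fibrin. Hepatocytes make most of these plasma proteins, several of them only in active form after gamma-carboxylation by a vitamin K dependent enzyme, while endothelial and stromal cells make factor VIII, von Willebrand factor, thrombomodulin and tissue factor. Fibrinogen is also an acute phase protein, which hepatocytes make in larger amounts when IL-6 signals through STAT3.

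The livers came from mice lacking the epidermal growth factor receptor (EGFR) in hepatocytes, labelled KO, and from wild-type mice, labelled WT. The dose of APAP, which injures hepatocytes, was 500 mg/kg, and the groups used here were KO and WT livers at 0, 1, 3 and 12 h, with 3 individual mice in each of the 8 groups. The sources used here name no Cre driver, strain, sex or age, and do not say whether the 0 h mice had received the drug or a vehicle. No group of untreated mice was matched to the later times. Livers at 6 and 24 h were not analysed here. RNA selected for poly(A) tails was sequenced, and 3537237 to 7580645 reads per library were counted to genes, with a median of 5930244. The 36 genes took 0.696 to 2.4% of those counts. The summed level of 5 hepatocyte markers lay between 33974 and 56525 CPM in the 24 libraries. In whole liver, fewer cells of a type and less RNA per cell cannot be told apart.

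Some libraries stood apart by Egfr or by acute phase genes. Egfr was counted over the whole gene. At 0 h it averaged 82.4 ± 25.3 CPM in KO and 393 ± 63.9 CPM in WT livers (SD, n = 3 each), and at 1 h 209 ± 110 CPM in KO and 380 ± 41.6 CPM in WT livers. At 3 h it averaged 179 ± 94.4 CPM in KO and 464 ± 165 CPM in WT livers, and at 12 h 75.4 ± 38.0 CPM in KO and 223 ± 33.9 CPM in WT livers. None of the 4 differences was called by the test used below (adjusted p 0.0946 at 0 h to 0.540 at 1 h). In the library labelled KO 1 h replicate 1 there were 335 CPM of Egfr, above the 332 CPM of the lowest WT 1 h library, so it did not follow its label. At 3 h, WT replicates 2 and 3 differed from WT replicate 1. The summed level of 10 acute phase genes was 2501, 2074 and 2018 CPM in KO 3 h livers and 2584, 10478 and 9590 CPM in WT 3 h livers. Most calls and medians at 3 h that use the WT livers are therefore also given without those 2. Fibrinogen is itself an acute phase protein, and the acute phase list was chosen with earlier results of these data known. Leaving out livers picked by that list is therefore not an independent check of the fibrinogen rise.

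The responses of the 33 tested members to APAP are given first as counts, each beside the share of all 13204 genes called in that comparison. A gene is called where edgeR's quasi-likelihood test gave a Benjamini-Hochberg adjusted p under 0.05 over all genes. In KO livers at 1 h 1 member was lower than at 0 h, where 7.58% of all genes were called and 3.64% were lower. In KO livers at 3 h 1 was higher and 2 were lower, where 9.95% were called, 5.11% higher and 4.84% lower. In KO livers at 12 h 1 was higher and 8 were lower, where 28.8% were called, 15.1% higher and 13.7% lower. In WT livers at 1 h 4 were lower, where 8.09% were called and 4.00% were lower. In WT livers at 3 h 11 were higher and 1 was lower, where 14.1% were called, 7.28% higher and 6.85% lower. In WT livers at 12 h 2 members stood above and 2 below 0 h, where 25.6% were called, 13.4% higher and 12.2% lower. The 33.3% of members higher at 3 h in WT livers lay above the background of that comparison. At 12 h 27.3% of members were called in KO livers, beside 28.8% of all genes, and 12.1% in WT livers, beside 25.6%. Members lower at 12 h made up 24.2% in KO livers, beside 13.7% of all genes, and 6.06% in WT livers, beside 12.2%. The WT calls at 3 h lay mostly in fibrinogen and fibrinolysis genes, and the KO calls at 12 h mostly in protease and inhibitor genes.

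**Figure D1:**
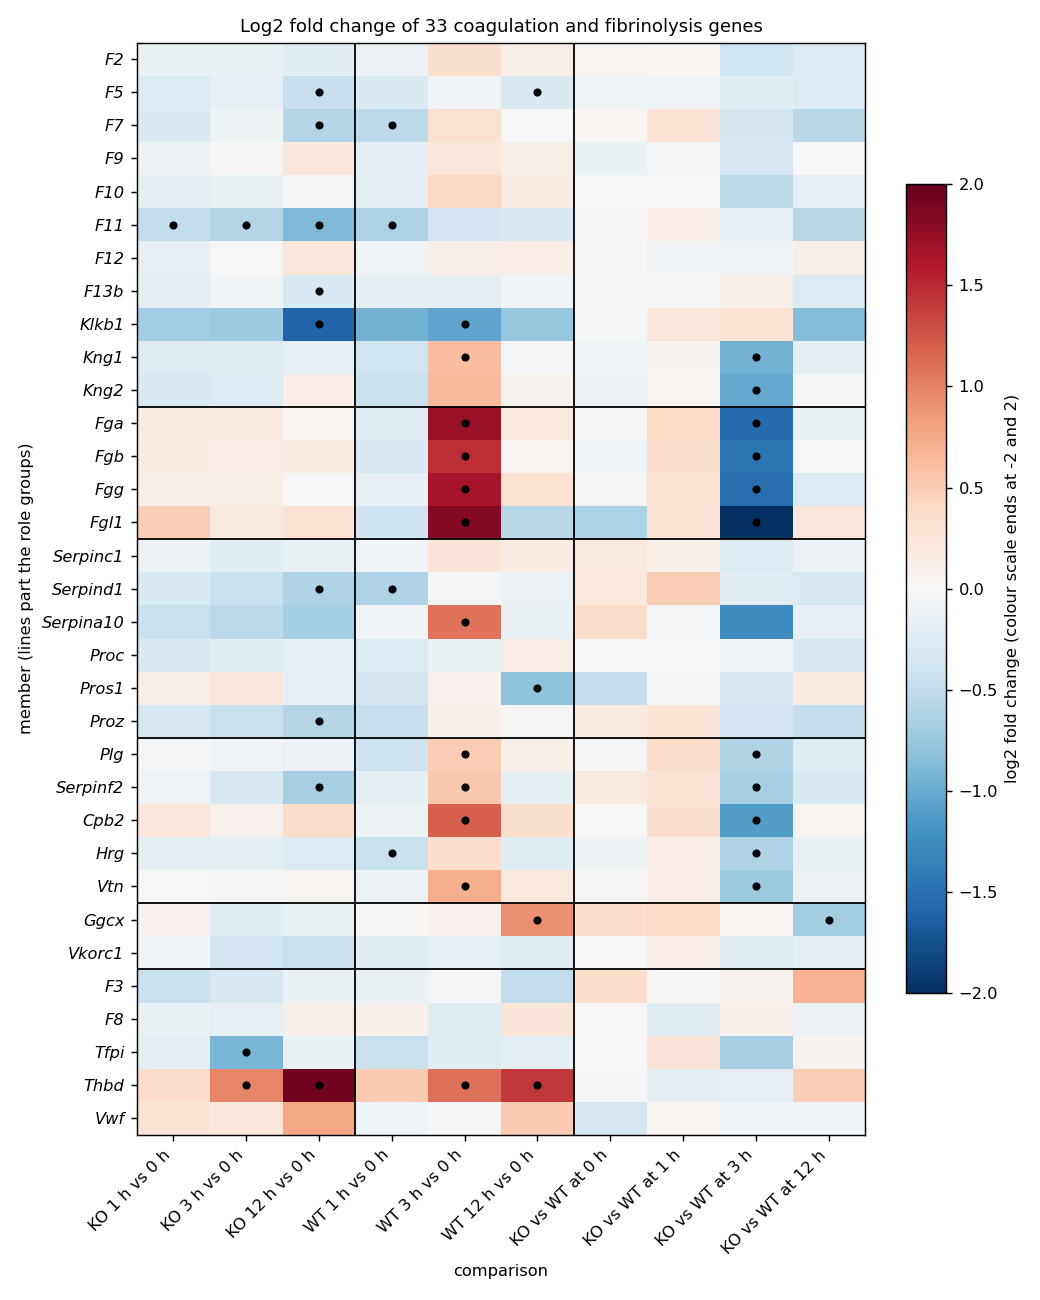
Log2 fold change (colour) of the 33 tested members (rows, parted by lines into 6 role groups) in 10 comparisons (columns): KO livers against 0 h, WT livers against 0 h, and KO against WT livers at each time. Black dots mark an adjusted p under 0.05; the dots at 3 h gather in the fibrinogen and fibrinolysis rows of the WT and KO-against-WT columns, with Fgl1 at -2.28 in KO against WT.

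Fibrinogen is built from 3 chains, encoded by Fga, Fgb and Fgg, which lie side by side on chromosome 3. Their promoters are shown because all 3 chains were called higher in WT livers at 3 h. RefSeq promoter windows (build GRCm38.p6, not the mm39 build of the counts) were at hand for 27 of the 36 members, and the 250 bases before each start were searched on both strands for CTGGGA, the core of the IL-6 response element of acute phase genes. The letters were in 8869 of 32851 windows of that length, or 27%, and in 9 of 28 member windows, or 32.1%. The sequences below run 5′ to 3′ along the gene and end at the base before its start, at chr3:83025903-83026152 (plus strand) for Fga, chr3:83049864-83050113 (minus strand) for Fgb, chr3:83007474-83007723 (plus strand) for Fgg and chr8:45294836-45295085 (minus strand) for Klkb1, with CTGGGA in capitals. Klkb1, the gene of plasma prekallikrein, is set beside them. Its window holds the same letters, and it was called lower in WT livers at 3 h. It was picked after its values were seen, and the part of the letters in these levels was not tested.
Fga: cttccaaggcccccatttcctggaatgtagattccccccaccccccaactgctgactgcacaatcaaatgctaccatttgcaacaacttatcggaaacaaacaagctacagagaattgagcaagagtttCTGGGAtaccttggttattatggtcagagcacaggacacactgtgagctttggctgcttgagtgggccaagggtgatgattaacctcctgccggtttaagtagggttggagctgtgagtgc
Fgb: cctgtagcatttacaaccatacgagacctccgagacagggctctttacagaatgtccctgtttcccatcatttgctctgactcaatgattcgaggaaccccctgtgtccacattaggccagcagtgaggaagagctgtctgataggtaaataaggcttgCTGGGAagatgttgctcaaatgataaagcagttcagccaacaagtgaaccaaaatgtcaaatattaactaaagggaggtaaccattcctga
Fgg: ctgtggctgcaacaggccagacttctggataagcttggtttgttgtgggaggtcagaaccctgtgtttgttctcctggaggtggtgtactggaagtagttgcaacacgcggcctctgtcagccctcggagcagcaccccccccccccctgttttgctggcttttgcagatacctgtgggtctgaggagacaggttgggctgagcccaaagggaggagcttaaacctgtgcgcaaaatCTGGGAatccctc
Klkb1: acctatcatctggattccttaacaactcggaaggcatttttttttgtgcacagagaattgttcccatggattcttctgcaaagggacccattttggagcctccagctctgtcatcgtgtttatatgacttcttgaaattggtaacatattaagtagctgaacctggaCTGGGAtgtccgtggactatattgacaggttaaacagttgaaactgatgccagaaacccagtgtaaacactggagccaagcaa
The capitals began 121 bases before the start in Fga, 91 in Fgb, 13 in Fgg and 83 in Klkb1, in each in the direction of the gene. The letters were also in the windows of Tfpi, F10, Serpind1, Pros1 and F9. The palindrome TTCNNNGAA, which STAT proteins bind, was in the windows of Fga, Fgb, Pros1 and F9, 4 of 28 member windows or 14.3%, and in 7.02% of all windows. Pros1 and F9 were not called at 3 h. Sites of other transcription factors were searched too. The C/EBP core TTGCNNAA was in 32.1% of member windows and 9.56% of all windows. The HNF1 half-site GTTAAT was in 17.9% of member windows and 6.43% of all windows. The AP-1 site TGANTCA was in 17.9% and 6.75%, and the HNF4 core CAAAGTNCA in 3.57% and 1.19%, in the same order. A match is a description of letters and shows no binding.

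Fga held 1369, 1279 and 1440 CPM in KO livers (0 h), 1483, 1556 and 1541 CPM (1 h), 1627, 1452 and 1513 CPM (3 h), and 1259, 1555 and 1393 CPM (12 h). In WT livers Fga held 1456, 1179 and 1376 CPM (0 h), 1302, 1258 and 915 CPM (1 h), 1485, 5131 and 6698 CPM (3 h), and 1452, 1584 and 1564 CPM (12 h). Only WT 3 h replicates 2 and 3 left the range of 915 to 1627 CPM that the other 22 libraries kept. Fgb held 1231, 1181 and 1289 CPM in KO livers at 3 h, against 1250, 3929 and 4864 CPM in WT livers at 3 h. Fgg held 938, 894 and 915 CPM in KO livers at 3 h, against 960, 2972 and 3890 CPM in WT livers at 3 h. WT 3 h replicate 1 lay within the range of the KO 3 h livers for Fga and Fgb and above their highest for Fgg. Fgl1, which encodes a secreted fibrinogen-like protein of hepatocytes, held 125, 118 and 108 CPM in KO livers at 3 h, against 157, 788 and 768 CPM in WT livers at 3 h.

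In WT livers at 3 h against 0 h, all 4 genes of the group rose, with a median log2 fold change of 1.69 beside 0.00 over all genes tested. The 5 hepatocyte markers, which summed to 46760 to 56525 CPM in WT livers at 3 h and 34867 to 39370 CPM at 0 h, had a median of 0.53, with 3 of 5 called higher, and their part in the rises was not tested. Fga rose by 1.73 on the log2 scale (SE 0.322, adjusted p = 0.00134), Fgb by 1.47 (SE 0.303, adjusted p = 0.00278), Fgg by 1.65 (SE 0.305, adjusted p = 0.00121) and Fgl1 by 1.84 (SE 0.423, adjusted p = 0.00731). Each rise was carried by replicates 2 and 3. Without those 2 livers the log2 fold changes were 0.15 for Fga (adjusted p = 0.707), 0.05 for Fgb (0.922), 0.21 for Fgg (0.593) and -0.02 for Fgl1 (0.983), where the lone remaining WT 3 h liver was taken to vary as the other groups do. Without them the group's median was 0.10, that of the hepatocyte markers was 0.34 and that of all genes -0.02. In a fit of the WT 3 h and WT 0 h libraries alone the 4 genes were not called, with adjusted p of 0.0877, 0.0851, 0.0819 and 0.190 in the same order. In KO livers at 3 h none of the 4 was called, and the group's median was 0.15 beside -0.02 over all genes.

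The ratios of the chains to each other spanned less than their levels. Over the 24 libraries the level of Fga spanned 7.32-fold, that of Fgb 6.06-fold and that of Fgg 6.49-fold, while the ratio of Fgb to Fga spanned 1.40-fold, that of Fgg to Fga 1.45-fold and that of Fgb to Fgg 1.38-fold. The wide spans of level came from WT 3 h replicates 2 and 3. The other libraries held 915 to 1627 CPM of Fga, 803 to 1582 CPM of Fgb and 599 to 1083 CPM of Fgg. Among them the ratio of Fgb to Fga ran from 0.738 in KO 12 h replicate 3 to 1.02 in KO 12 h replicate 2. These ratios of CPM are not ratios of molecules, since CPM is not scaled to transcript length. Reads assigned to the strand of Fgg were 1.13 times those in its unstranded count.

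**Figure D2:**
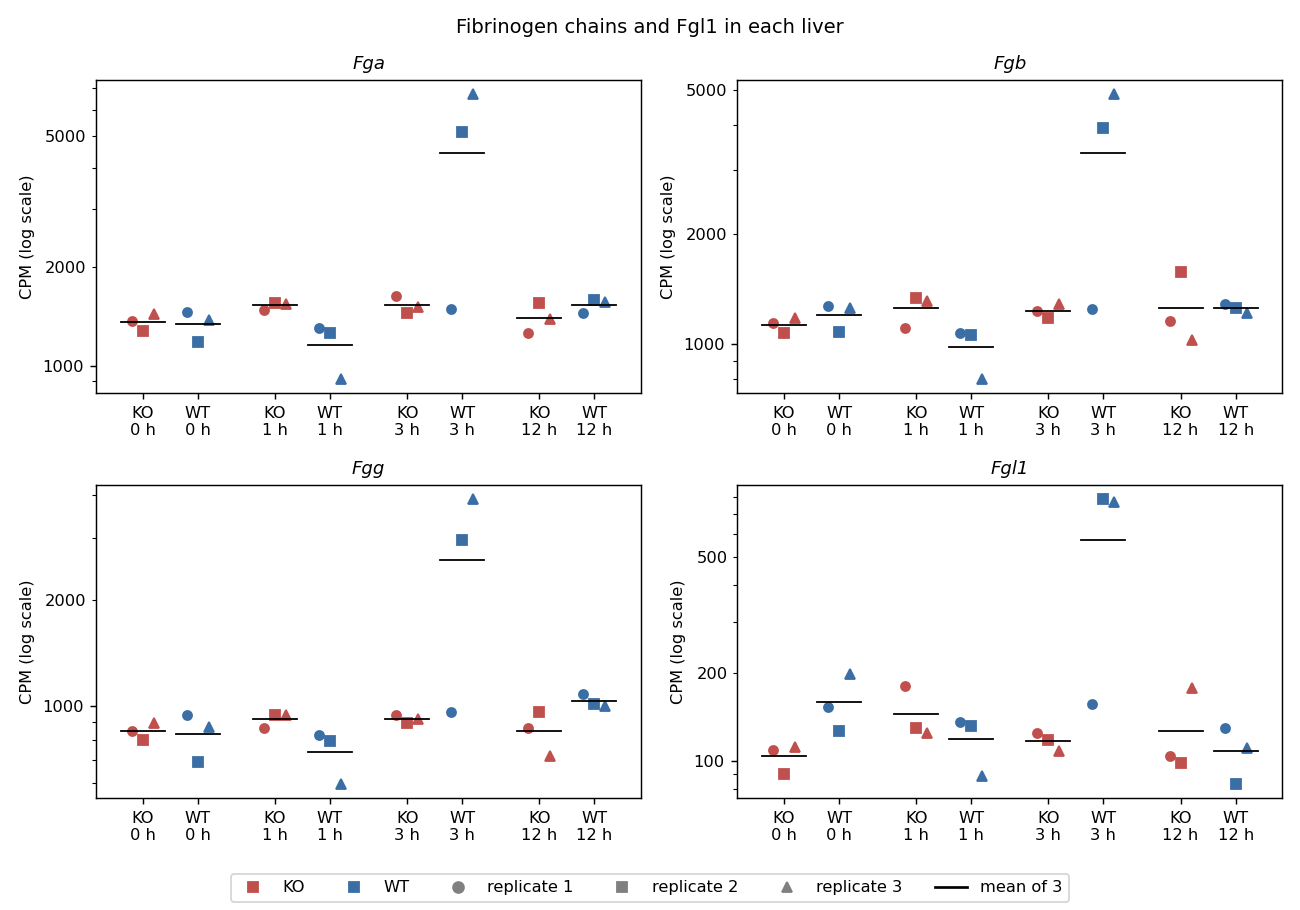
Level of Fga, Fgb, Fgg and Fgl1 in each liver (CPM, log axis), KO left of WT at each time, with marker shapes for the replicate and a bar for the mean of 3. WT 3 h replicates 2 and 3 sit at 5131 and 6698 CPM for Fga, apart from the other 22 livers at 915 to 1627 CPM.

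Genes of fibrinolysis that hepatocytes make took part in the 3 h rise. Cpb2, whose product TAFI trims fibrin and so slows its dissolution, held 82.9, 86.7 and 64.6 CPM in KO livers at 3 h, against 95.9, 194 and 215 CPM in WT livers at 3 h. In WT livers Cpb2 had held 83.8, 55.9 and 78.9 CPM at 0 h, and it rose by 1.20 on the log2 scale (SE 0.221, adjusted p = 0.000873). The 3 WT livers at 3 h all lay above the WT livers at 0 h. Plg, the gene of plasminogen, held 746, 721 and 689 CPM in KO livers at 3 h and 819, 1217 and 1222 CPM in WT livers at 3 h, a rise of 0.51 in WT livers against 0 h (adjusted p = 0.0110). Serpinf2, whose product antiplasmin inhibits plasmin, rose by 0.54 (adjusted p = 0.0147). Vtn, the gene of vitronectin, an adhesive plasma glycoprotein, rose by 0.72 (adjusted p = 0.00103). The transcripts called in this comparison encode proteins with opposed roles in fibrinolysis. Hrg, the gene of a plasma glycoprotein that binds plasminogen and heparin, was not called in it.

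None of these calls held without WT 3 h replicates 2 and 3, with log2 fold changes of 0.39 for Cpb2 (adjusted p = 0.296), 0.10 for Plg (0.818), 0.26 for Serpinf2 (0.540) and 0.29 for Vtn (0.408). The call of Plg was also lost without WT 3 h replicate 2 alone (0.41, adjusted p = 0.0709) or replicate 3 alone (0.42, adjusted p = 0.0833), and in the fit of the WT 3 h and WT 0 h libraries alone (0.52, adjusted p = 0.0992). That of Serpinf2 was lost without WT 3 h replicate 2 (0.46, 0.0746), WT 3 h replicate 3 (0.50, 0.0678), WT 0 h replicate 2 (0.47, 0.0729) or WT 0 h replicate 3 (0.52, 0.0551), each pair giving the log2 fold change and the adjusted p.

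Outside these groups, 2 further hepatocyte genes rose in WT livers at 3 h. Kng1 encodes kininogen, the cofactor of contact activation and the source of bradykinin. It held 657, 615 and 638 CPM in KO livers at 3 h, against 701, 1499 and 1461 CPM in WT livers at 3 h, and its rise against 0 h in WT livers was 0.61 (adjusted p = 0.0119). Serpina10, the gene of the protein Z dependent inhibitor of factor Xa, held 17.2, 15.5 and 15.6 CPM in KO livers at 3 h and 17.2, 52.0 and 48.1 CPM in WT livers at 3 h, a rise of 1.08 against 0 h (adjusted p = 0.0204). Without WT 3 h replicates 2 and 3 the log2 fold changes turned to -0.19 for Kng1 (adjusted p = 0.568) and -0.08 for Serpina10 (adjusted p = 0.911). Without WT 0 h replicate 2, Kng1 stood at 0.52 (adjusted p = 0.0680) and Serpina10 at 0.97 (adjusted p = 0.0803), and without WT 0 h replicate 3 Serpina10 stood at 1.05 (adjusted p = 0.0703). Leaving out WT 3 h replicate 2 alone put Kng1 at 0.43 (adjusted p = 0.110) and Serpina10 at 0.82 (0.0948). Leaving out WT 3 h replicate 3 alone put Kng1 at 0.46 (0.108) and Serpina10 at 0.89 (0.110). In the fit of the WT 3 h and WT 0 h libraries alone neither was called, with Kng1 at 0.62 (0.152) and Serpina10 at 1.10 (0.207). Kng1 and Kng2 are near-identical copies, so how reads were shared between them is uncertain.

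Set directly against each other at 3 h, KO livers were lower than WT livers in 11 of 33 members and higher in none, where 0.977% of all genes were called and 0.651% were lower. The group of 4 fibrinogen genes had a median log2 fold change of -1.52, the 5 fibrinolysis genes -0.67, the 11 procoagulant factors -0.33 and the 6 anticoagulants -0.31, beside -0.01 over all genes. With WT 3 h replicates 2 and 3 left out these medians were -0.03, -0.29, -0.11 and -0.10, beside 0.01 over all genes. Fgl1 was lower by the most among members called, at -2.28 (SE 0.432, adjusted p = 0.0174). Fga stood at -1.54 (adjusted p = 0.0236), Fgb at -1.44 (0.0236), Fgg at -1.51 (0.0207) and Cpb2 at -1.11 (0.0174). Vtn stood at -0.74 (0.0112), Serpinf2 at -0.67 (0.0233), Hrg at -0.62 (0.0158) and Plg at -0.60 (0.0236). Among procoagulant genes, Kng1 at -0.94 (0.00494) and Kng2 at -1.03 (0.0236) were called, while thrombin, factor V, VII, IX, X, XI, XII and XIII B genes were not.

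Hrg held 346, 333 and 332 CPM in KO livers, against 378, 634 and 545 CPM in WT livers at 3 h. Vtn held 404, 336 and 332 CPM in KO livers, against 444, 686 and 661 CPM in WT livers at 3 h. Serpinf2 held 97.9, 78.9 and 81.7 CPM in KO livers, against 113, 153 and 147 CPM in WT livers at 3 h. In these 3 genes every KO liver lay below every WT liver, WT replicate 1 included. Kng2 held 74.6, 64.5 and 69.4 CPM in KO livers, against 77.5, 174 and 175 CPM in WT livers at 3 h. In 15 of 33 members the KO livers all lay below the WT livers at 3 h, or 45.5%, beside 7.89% of all genes.

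The 11 calls rest on the same WT livers. Without WT 3 h replicates 2 and 3 no member was called, and the log2 fold changes were 0.06 for Fga, -0.01 for Fgb, -0.06 for Fgg, -0.41 for Fgl1, -0.13 for Kng1, -0.29 for Cpb2, -0.30 for Vtn, -0.38 for Serpinf2, -0.18 for Plg, -0.15 for Hrg and -0.14 for Kng2. With KO 3 h replicate 1 left out 3 members were called, and with KO 3 h replicate 2 or 3 left out there was 1. With WT 3 h replicate 2 or 3 left out there were 0. With WT 3 h replicate 1 left out there were 15, where 2.44% of all genes were called and 1.55% were lower. In a fit of the KO 3 h and WT 3 h libraries alone 1 member was called. Other measures moved with these livers, and their part in the result was not tested. The red blood cell genes summed to 55.1, 59.3 and 42.2 CPM in KO livers and 80.1, 252 and 331 CPM in WT livers at 3 h, with 3 of 5 genes called lower in KO. Their median log2 fold change was -2.25, and -0.48 without the 2 WT livers. The 9 Kupffer cell markers summed to 51.3 to 66.8 CPM in KO and 65.5 to 154 CPM in WT livers at 3 h, with 1 called. Their median log2 fold change was -0.82, and -0.20 without the 2 WT livers. Of the 10 acute phase genes, 8 were called lower in KO livers at 3 h, with a median of -1.89, and so was Stat3, at -0.89 (adjusted p = 0.0236). Without the 2 WT livers the acute phase median was -0.11 and Stat3 stood at -0.21 (adjusted p = 1.00). The 5 hepatocyte markers summed to 42051, 40429 and 41043 CPM in KO livers and 46760, 54393 and 56525 CPM in WT livers at 3 h. Their median log2 fold change in KO against WT was -0.31, with 1 of 5 called lower, and -0.10 without the 2 WT livers.

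**Figure D3:**
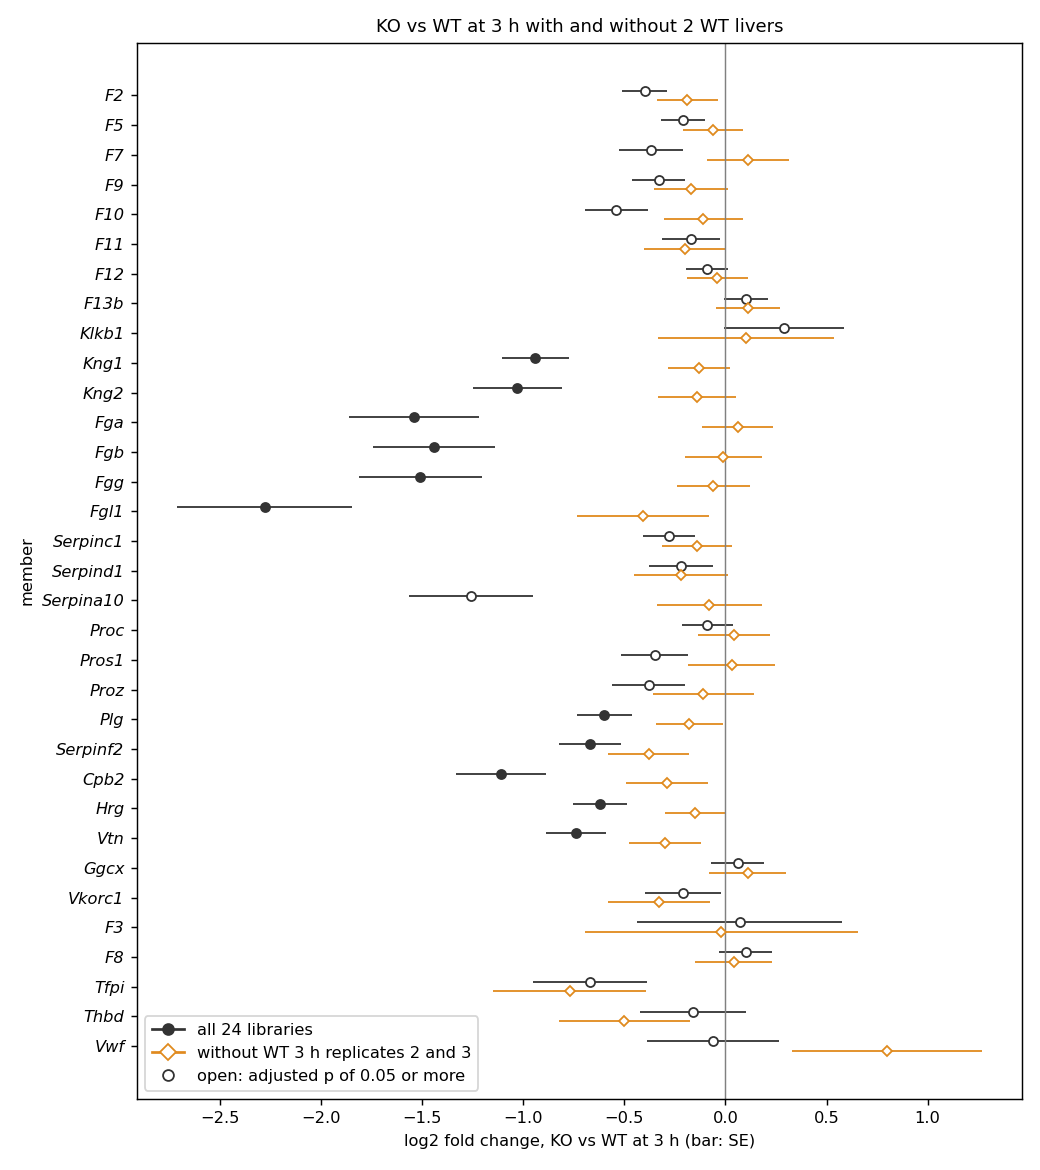
Log2 fold change of KO against WT livers at 3 h (x axis, bars for the SE) for the 33 tested members, with all 24 libraries (black circles) and without WT 3 h replicates 2 and 3 (orange diamonds). Filled symbols mark an adjusted p under 0.05: 11 black circles are filled and no diamond is, and Fga lies at -1.54 with all libraries and at 0.06 without the 2 livers.

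Whether the 3 h response itself differed between genotypes was tested as the KO change minus the WT change from 0 h. No member was called, where 0.151% of all genes were. By edgeR's test 16 members had an unadjusted p under 0.05, all with a difference below 0, where 4.62% of all genes met both criteria. DESeq2 called 6 members, all in that direction, where 0.677% of the genes for which it gave an adjusted p were called lower. The 4 fibrinogen genes had a median difference of -1.55 and the 5 fibrinolysis genes of -0.76, beside 0.00 over all genes. Without WT 3 h replicate 1 there were 12 members called, each lower, where 0.721% of all genes were lower. With replicate 2, replicate 3 or both left out of the WT 3 h livers, 0 members were called, and without both the medians were 0.06 for the fibrinogen genes and -0.30 for the fibrinolysis genes, beside 0.03 over all genes.

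Klkb1 and F11 fell, while F12, F9 and F8, the other genes of contact activation and of the intrinsic pathway apart from the kininogens, were called in no comparison. Klkb1 held 201, 162 and 155 CPM in KO livers (0 h), 166, 102 and 55.3 CPM (1 h), 134, 98.7 and 78.6 CPM (3 h), and 65.7, 36.8 and 69.1 CPM (12 h). WT livers held 186, 171 and 173 CPM (0 h), 90.5, 99.6 and 86.1 CPM (1 h), 97.6, 91.8 and 66.1 CPM (3 h), and 102, 99.2 and 111 CPM (12 h). WT livers were at the lower level from 1 h on with no overlap with 0 h, and KO livers were lowest at 12 h. At 1 h the KO livers overlapped with 0 h through the library labelled KO 1 h replicate 1, which did not follow its label by Egfr. Without it Klkb1 was lower in KO livers at 1 h by 1.12 (adjusted p = 0.0118), and with it Klkb1 stood at -0.69 (adjusted p = 0.181), not called. Klkb1 fell by 1.60 on the log2 scale in KO livers at 12 h (SE 0.312, adjusted p = 0.000854) and by 1.05 in WT livers at 3 h (SE 0.298, adjusted p = 0.0243). In WT livers it stood at -0.94 at 1 h (adjusted p = 0.0634) and -0.76 at 12 h (adjusted p = 0.0727), neither called by edgeR's test. DESeq2 called both lower (adjusted p = 0.0115 and 0.0277), as did fits of the 2 compared groups alone (7.77e-05 and 8.39e-05). The WT call at 3 h was lost without WT 3 h replicates 2 and 3 together (-0.85, adjusted p = 0.335), in the fit with no low-count filter (-1.04, adjusted p = 0.0666) and without any WT 3 h or 0 h library other than WT 3 h replicate 1, at log2 fold changes of -1.0 without WT 0 h replicate 1 (adjusted p = 0.0726), -1.07 without WT 0 h replicate 2 (0.0535) or replicate 3 (0.0549), -1.11 without WT 3 h replicate 2 (0.0530), and replicate 3 of that group left it at -0.89 when omitted (0.122).

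F11, the gene of factor XI, which lies beside Klkb1 on chromosome 8, held 59.4, 54.2 and 49.3 CPM in KO livers (0 h), 47.0, 35.1 and 33.2 CPM (1 h), 32.5, 40.5 and 36.3 CPM (3 h), and 31.7, 29.2 and 27.2 CPM (12 h). WT livers held 64.4, 46.9 and 48.5 CPM (0 h), 29.6, 39.2 and 35.2 CPM (1 h), 42.0, 44.1 and 36.4 CPM (3 h), and 43.3, 38.1 and 48.2 CPM (12 h). F11 was the member called at most times in KO livers, lower by 0.50 at 1 h (adjusted p = 0.0222), 0.58 at 3 h (0.00715) and 0.88 at 12 h (3.93e-05). In WT livers it fell by 0.63 at 1 h (SE 0.142, adjusted p = 0.00426), and stood at -0.39 at 3 h (0.0616) and -0.31 at 12 h (0.127). The KO call at 1 h was lost without KO 0 h replicate 1 (-0.44, 0.105) or 2 (-0.49, 0.0722), or KO 1 h replicate 2 (-0.43, 0.144) or 3 (-0.39, 0.157), and the KO call at 3 h without KO 3 h replicate 1 (-0.50, 0.0532). The WT call at 1 h was lost without WT 0 h replicate 1 (-0.45, 0.0719) or WT 1 h replicate 1 (-0.51, 0.0515). Whether the fall differed between genotypes was tested at 12 h and was not called, for F11 (-0.58, SE 0.210, adjusted p = 0.348) or for Klkb1 (-0.84, SE 0.429, adjusted p = 0.521).

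Further genes of proteases and cofactors were lower in KO livers at 12 h. The difference of responses at 12 h was called for 0 of the 26 hepatocyte factors outside the vitamin K enzymes, where 0.0227% of all genes were called. Their median difference was -0.20, beside 0.02 over all genes. F7, the gene of factor VII, which tissue factor activates, held 21.4, 14.2 and 14.3 CPM in KO livers at 12 h and 24.1, 24.5 and 26.3 CPM in KO livers at 0 h. It was lower by 0.58 on the log2 scale (adjusted p = 0.0118), a call lost without KO 12 h replicate 2 (-0.47, 0.0895) or replicate 3 (-0.50, 0.0597). F5, the gene of the cofactor of factor Xa, held 587, 540 and 531 CPM in KO livers at 12 h and 747, 778 and 748 CPM in KO livers at 0 h, a fall of 0.46 (adjusted p = 0.00206). In WT livers F5 held 666, 644 and 672 CPM at 12 h, against 792, 821 and 816 CPM at 0 h, a fall of 0.29 (adjusted p = 0.0479) that was lost without any of the 6 libraries (adjusted p 0.0815 without WT 0 h replicate 1 to 0.134 without WT 12 h replicate 2). It was also lost with DESeq2's scaling of libraries in edgeR (adjusted p = 0.0539), in own-strand counts (0.0844) and in the fit of the 2 groups alone (0.0815). F13b, the carrier subunit of the fibrin cross-linking factor XIII, fell by 0.31 (adjusted p = 0.0360) in KO livers at 12 h. That call was lost in own-strand counts (-0.26, 0.0659), and without KO 0 h replicate 1 (-0.26, 0.133) or 2 (-0.30, 0.0794), or KO 12 h replicate 2 (-0.23, 0.196).

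Inhibitors fell beside them. Serpind1, the gene of heparin cofactor II, held 79.1, 62.2 and 99.5 CPM in KO livers at 12 h and 130, 105 and 133 CPM in KO livers at 0 h, a fall of 0.62 (SE 0.162, adjusted p = 0.00456). Proz, the gene of protein Z, the cofactor of the Serpina10 product, held 78.0, 54.5 and 93.2 CPM in KO livers at 12 h and 120, 113 and 107 CPM in KO livers at 0 h, a fall of 0.59 (adjusted p = 0.0183). The Proz call was lost in the counts of its own strand, which were 1.69 times the unstranded ones (-0.47, adjusted p = 0.144), and without KO 0 h replicate 1 (-0.56, 0.0555) or KO 12 h replicate 2 (-0.40, 0.127). Serpinf2 held 51.6, 81.8 and 68.8 CPM in KO livers at 12 h and 111, 92.5 and 117 CPM in KO livers at 0 h, a fall of 0.66 (adjusted p = 0.00181). In these 3 genes no KO liver at 12 h reached the KO livers at 0 h. In that comparison 13.7% of all genes were called lower, and the share without overlap is not given here. Pros1, the gene of protein S, a cofactor of activated protein C, fell in WT livers, at 54.1, 52.5 and 49.5 CPM at 12 h against 85.5, 78.6 and 108 CPM at 0 h, by 0.81 (SE 0.173, adjusted p = 0.000948). In KO livers Pros1 held 49.8, 78.4 and 44.4 CPM at 12 h, against 54.8, 74.9 and 65.3 CPM at 0 h, and was not called.

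At 1 h 4 members were called in WT livers, each lower than at 0 h. Besides F11 these were Serpind1 at -0.62 (adjusted p = 0.0130), F7 at -0.53 (0.0380) and Hrg at -0.44 (0.0343). Without WT 0 h replicate 1 no member was called, with Serpind1 at -0.50 (0.0943), F7 at -0.52 (0.107) and Hrg at -0.45 (0.0703). With WT 0 h replicate 3 left out 2 members were called, and with WT 1 h replicate 1 or 3 left out there was 1. Serpind1 stood at -0.48 (0.106) without WT 1 h replicate 3. F7 held its call only without WT 1 h replicate 2, and its adjusted p otherwise ran up to 0.209 without WT 1 h replicate 3, with its lowest of 0.0513 without WT 0 h replicate 3. Hrg held its call only without WT 0 h replicate 2, and its adjusted p otherwise ran up to 0.174 without WT 1 h replicate 3, with its lowest of 0.0696 without WT 1 h replicate 1. DESeq2 put F7 at an adjusted p of 0.0528. In KO livers F11 alone was called at 1 h, and without the library labelled KO 1 h replicate 1 there were 4, each lower. In 11 of 33 members the WT livers at 1 h all lay below those at 0 h, or 33.3%, beside 12.3% of all genes. Other measures moved in the same comparison, and their part in the fall was not tested. The 9 Kupffer cell markers summed to 50.4 to 58.8 CPM in WT livers at 1 h and 68.6 to 135 CPM at 0 h, with a median log2 fold change of -0.89 and 5 of 9 called lower. The 5 red blood cell genes summed to 42.9 to 64.6 CPM in WT livers at 1 h and 63.7 to 146 CPM at 0 h, with a median of -0.91 and none called.

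A block of hepatocyte genes was called in no comparison. F2, the gene of prothrombin, ranged from 280 CPM in KO 12 h replicate 3 to 450 CPM in WT 3 h replicate 2. F9, F10 and F12 had group means that spanned 1.37, 1.5 and 1.30-fold over the 8 groups. Serpinc1, the gene of antithrombin, spanned 1.22-fold and Proc, the gene of protein C, 1.34-fold. Vkorc1, which recycles vitamin K for gamma-carboxylation, held 8.50 to 19.3 CPM, and its group means spanned 1.34-fold. Among the genes of vitamin K dependent proteins, F7 and Proz were lower in KO livers at 12 h. F7 was lower in WT livers at 1 h and Pros1 in WT livers at 12 h. With all 24 libraries F2, F9, F10 and Proc were not called. Without the library labelled KO 1 h replicate 1, edgeR's test called Proc (-0.43, adjusted p = 0.0328) and Proz (-0.56, 0.0472) lower in KO livers at 1 h.

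Ggcx, the enzyme that carboxylates these proteins, was the only member called between genotypes at 12 h, where 0.0530% of all genes were called, all lower in KO. In unstranded counts it held 24.0, 25.5 and 33.5 CPM in KO livers at 12 h, against 44.0, 43.1 and 46.9 CPM in WT livers at 12 h. It was lower in KO livers by 0.70 on the log2 scale (SE 0.135, adjusted p = 0.0249), higher in WT livers at 12 h than at 0 h by 0.92 (SE 0.130, adjusted p = 2.08e-06), and its response at 12 h was smaller in KO livers by 1.05 (SE 0.186, adjusted p = 0.0213), where 0.0227% of all genes were called and 0.00757% were lower. The call between genotypes was kept without KO 12 h replicate 3 and lost without any other library of the 2 groups (adjusted p 0.0664 without KO 12 h replicate 1 to 0.334 without KO 12 h replicate 2). That of the response was lost without KO 0 h replicate 3 (-1.06, 0.0603), KO 12 h replicate 2 (-1.0, 0.170), WT 0 h replicate 3 (-1.0, 0.126) or WT 12 h replicate 1 (-1.07, 0.0603). The difference lay in reads of the other strand. Split by strand, the reads on the strand of Ggcx averaged 22.2 ± 2.17 CPM in KO and 19.3 ± 0.350 CPM in WT livers at 12 h, and those on the opposite strand 6.14 ± 3.76 CPM in KO and 26.3 ± 2.34 CPM in WT livers at 12 h (SD, n = 3 each). The reads on the opposite strand numbered 16, 13 and 29 in KO livers at 12 h, against 79, 86 and 110 in WT livers at 12 h.

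Counted on its own strand, Ggcx was not called between genotypes at 12 h (0.20, SE 0.141, adjusted p = 0.668), nor in WT livers at 12 h against 0 h (-0.26, SE 0.132, adjusted p = 0.156), nor for the difference of responses (-0.15, SE 0.184, adjusted p = 0.837). The direction was thus turned in the first 2 of these comparisons. On its own strand Ggcx was lower in KO livers by 0.44 at 3 h (SE 0.121, adjusted p = 0.0213) and by 0.41 at 12 h (SE 0.128, adjusted p = 0.0163), each against 0 h. At 0 h the opposite strand held 0.354 ± 0.319 CPM in KO and 0.357 ± 0.0829 CPM in WT livers. At 1 h it held 4.16 ± 0.856 CPM in KO and 2.77 ± 0.701 CPM in WT livers. At 3 h it held 4.45 ± 0.771 CPM in KO and 3.20 ± 1.29 CPM in WT livers. In a fit of both strands as separate rows, chosen after seeing the data, the opposite-strand reads were lower in KO livers at 12 h by 2.17 (SE 0.293, adjusted p = 0.000329), and the difference of their responses was not called (-2.27, SE 0.905, adjusted p = 0.414). In that fit these reads were higher than at 0 h in KO livers at 1 h (3.41, adjusted p = 1.31e-05), 3 h (3.48, 8.28e-06) and 12 h (3.89, 4.3e-07). WT livers had them higher at 1 h (2.93, 0.000415), 3 h (3.17, 7.82e-05) and 12 h (6.16, 4.35e-13).

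Mat2a, the next protein-coding gene after Ggcx in the RefSeq table of build GRCm38.p6, lies on the opposite strand and encodes a methionine adenosyltransferase. It was looked up after the values were seen. Mat2a rose at 12 h against 0 h by 1.48 in KO livers (adjusted p = 1.95e-09) and by 1.05 in WT livers (adjusted p = 1.51e-06), and stood at 0.65 in KO against WT livers at 12 h (adjusted p = 0.0701). At 12 h against 0 h, the opposite-strand reads at Ggcx and Mat2a were both called higher, in KO and in WT livers. In KO against WT livers at 12 h the opposite-strand reads were called lower and Mat2a was not called. The source of these reads was not tested.

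**Figure D4:**
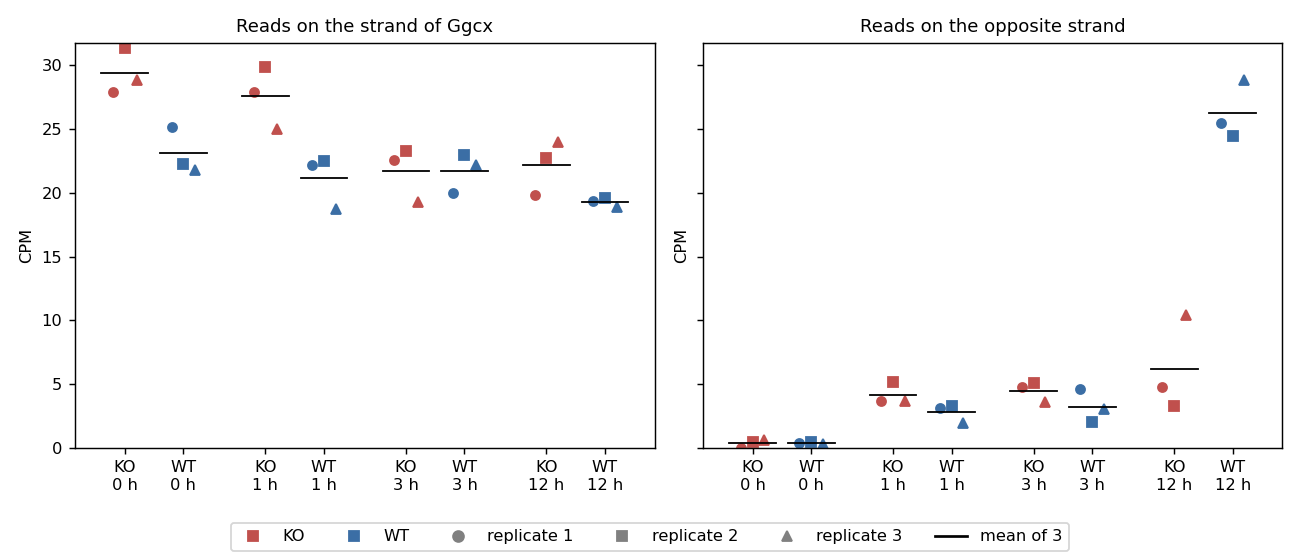
Reads assigned to the strand of Ggcx (left) and to the opposite strand (right) in each liver (CPM), KO left of WT at each time, with marker shapes for the replicate and a bar for the mean of 3. The opposite-strand reads average 6.14 CPM in KO and 26.3 CPM in WT livers at 12 h, while the own-strand reads average 22.2 and 19.3 CPM.

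Among genes of endothelial, stromal, blood or injured cells, thrombomodulin was the member that rose. Thbd, whose product turns thrombin into an activator of protein C, held 2.06, 3.58 and 2.73 CPM in KO livers (0 h), 3.14, 4.33 and 3.32 CPM (1 h), 5.15, 7.19 and 4.51 CPM (3 h), and 13.2, 8.11 and 11.2 CPM (12 h). WT livers held 2.84, 1.89 and 3.60 CPM (0 h), 4.69, 4.71 and 2.81 CPM (1 h), 7.85, 6.30 and 4.26 CPM (3 h), and 8.86, 7.23 and 7.00 CPM (12 h). Every liver at 3 and 12 h lay above every liver of its genotype at 0 h. Thbd rose by 0.97 in KO livers at 3 h (SE 0.287, adjusted p = 0.0264) and 1.93 at 12 h (SE 0.282, adjusted p = 3.91e-06), and by 1.10 in WT livers at 3 h (SE 0.282, adjusted p = 0.00721) and 1.41 at 12 h (SE 0.297, adjusted p = 0.000580). KO and WT livers at 12 h differed by 0.49 (SE 0.269, adjusted p = 0.547). The KO call at 3 h was lost without KO 0 h replicate 1 (0.81, 0.125) or 3 (0.97, 0.0741), or KO 3 h replicate 2 (0.79, 0.141), and the WT call at 3 h without WT 3 h replicate 1 (0.85, 0.0795). Without WT 3 h replicates 2 and 3, Thbd stood at 1.45 in WT livers at 3 h.

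The 10 sinusoidal endothelial markers summed to 237 to 313 CPM in KO livers at 12 h and 224 to 256 CPM in KO livers at 0 h, with 3 of 10 called higher, and to 237 to 272 CPM in WT livers at 12 h and 216 to 256 CPM in WT livers at 0 h, with 2 of 10 called higher. Their part in the rise of Thbd was not tested. F8, the cofactor of factor IXa, which liver endothelium makes, held 64.5, 63.6 and 89.1 CPM in KO livers at 12 h, against 69.3, 66.4 and 64.8 CPM in KO livers at 0 h, and 73.1, 78.4 and 83.8 CPM in WT livers at 12 h, against 63.0, 68.3 and 68.2 CPM in WT livers at 0 h. It was called in no comparison, and neither was Vwf, the platelet-binding carrier of factor VIII, at 1.79 to 6.29 CPM over the 24 livers.

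Tfpi, the inhibitor of the tissue factor complex, held 2.94, 2.18 and 2.65 CPM in KO livers at 3 h and 4.91, 5.52 and 4.59 CPM in KO livers at 0 h, a fall of 0.92 (SE 0.273, adjusted p = 0.0266). The call was lost by DESeq2 (-0.92, adjusted p = 0.0521), without KO 0 h replicate 1 (-0.93, 0.0595) or 2 (-0.83, 0.101), and without KO 3 h replicate 2 (-0.82, 0.108) or 3 (-0.91, 0.0987). F3, the gene of tissue factor, which starts clotting, lay between 0.316 and 2.40 CPM, and 82.4% of its few reads lay on its own strand. It was called in no comparison.

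Plaur, the receptor of the plasminogen activator urokinase, held 1.47, 0.737 and 1.05 CPM in KO livers at 12 h, against 0.158, 0.448 and 0.373 CPM in KO livers at 0 h, and 0.949, 0.834 and 2.07 CPM in WT livers at 12 h, against 0.258, 0 and 0.133 CPM in WT livers at 0 h. At 12 h every liver lay above every liver of its genotype at 0 h. In the fit with no low-count filter Plaur was called in WT livers at 12 h (2.89, SE 0.879, adjusted p = 0.0160) and not in KO livers (1.52, SE 0.798, adjusted p = 0.269). The plasminogen activator genes Plat and Plau had 25 and 38 counts over all 24 libraries, too few for a comparison. Markers of monocytes and neutrophils summed to 4.91 to 5.94 CPM in KO livers at 12 h and 1.34 to 1.58 CPM in KO livers at 0 h, and to 4.67 to 13.3 CPM in WT livers at 12 h and 1.03 to 4.20 CPM in WT livers at 0 h. Their part in the level of Plaur was not tested.

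**Figure D5:**
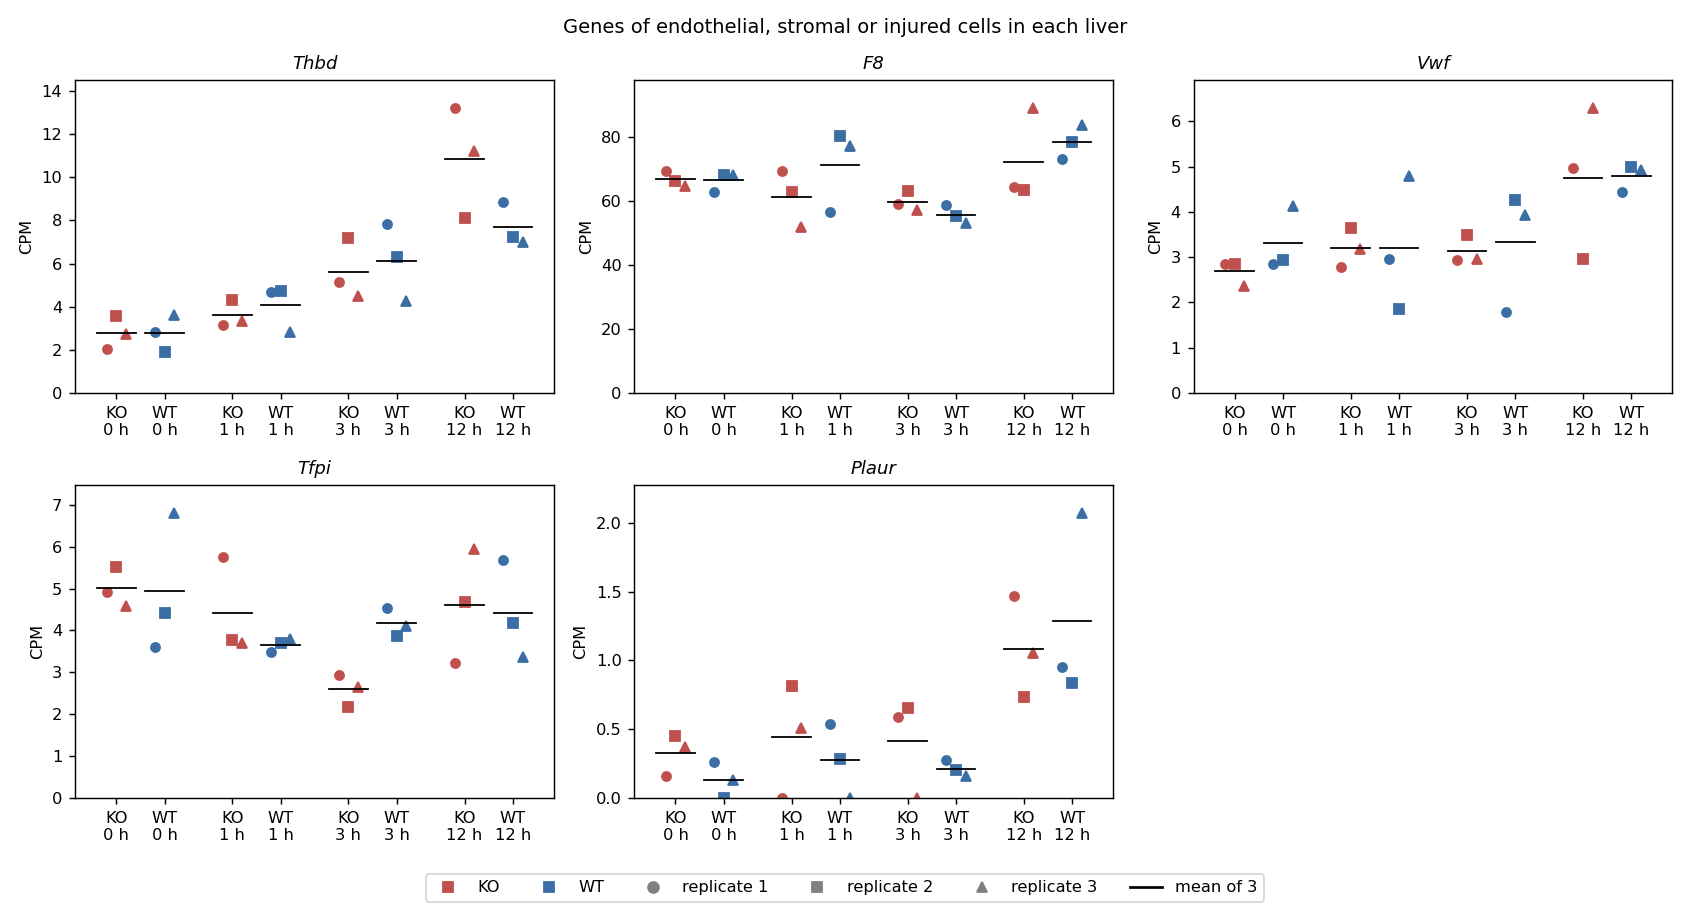
Level of Thbd, F8, Vwf, Tfpi and Plaur in each liver (CPM, linear axes from 0), KO left of WT at each time, with marker shapes for the replicate and a bar for the mean of 3. Thbd is highest at 12 h, at 8.11 to 13.2 CPM in KO and 7.00 to 8.86 CPM in WT livers.

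Of 21 further genes of the pathway, 12 were tested. In KO livers 0 were called at 1 h or 3 h and 2 were higher and 2 lower at 12 h. WT livers had 1 higher at 1 h, 1 higher at 3 h, and 1 lower at 12 h. Serping1, the inhibitor of plasma kallikrein and factor XIIa, was lower in KO than in WT livers at 3 h by 0.79 (adjusted p = 0.00843), at 259, 218 and 223 CPM in KO livers and 304, 457 and 446 CPM in WT livers. Without WT 3 h replicates 2 and 3 the difference was -0.37 (adjusted p = 0.890). S100a10, a part of the cell-surface complex that binds plasminogen, rose in KO livers at 12 h, at 54.5, 47.4 and 54.5 CPM against 28.8, 28.7 and 22.2 CPM at 0 h (0.97, adjusted p = 0.000141). In WT livers S100a10 rose at 1 h (0.57, adjusted p = 0.038) and stood at 0.35 at 12 h (0.162), not called. Mcfd2, which with Lman1 carries factors V and VIII out of the endoplasmic reticulum, fell at 12 h in KO livers (-0.60, adjusted p = 6.10e-05) and in WT livers (-0.66, adjusted p = 1.98e-05). Lman1 was called in neither. F2rl2, a protease-activated receptor gene, rose in KO livers at 12 h (1.24, adjusted p = 0.00301) and stood at 0.48 in WT livers (0.261). Tfpi2, a relative of Tfpi, fell in KO livers at 12 h (-0.56, adjusted p = 0.0359). In WT livers Tfpi2 stood at -0.58 at 12 h (0.0509), not called. The difference of responses at 12 h was not called for S100a10 (0.62, 0.419), F2rl2 (0.76, 0.568) or Tfpi2 (0.02, 0.951).

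Between genotypes at the other times, the members gave few differences by test. At 0 h no member was called, where 0.0151% of all genes were, and 2 members had an unadjusted p under 0.05 by edgeR, as did 8.12% of all genes. DESeq2 called 0 as well. At 1 h no member was called, where 0.492% of all genes were, and 3 members had an unadjusted p under 0.05, each higher in KO, as did 4.71% of all genes, with 0 called by DESeq2. These counts at 1 h also include the library labelled KO 1 h replicate 1, without which 0 members were called. The KO livers at 1 h all lay above the WT livers in 8 of 33 members, or 24.2%, beside 7.17% of all genes, among them Fga, Fgb, Fgg, Plg and Serpind1. The difference of responses at 1 h gave 0 members called by edgeR and 0 by DESeq2, with 0 at an unadjusted p under 0.05, where 0.454% of all genes were called.

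At 12 h the KO livers all lay below the WT livers in 11 of 33 members, or 33.3%, beside 7.38% of all genes. Klkb1 held 65.7, 36.8 and 69.1 CPM in KO livers at 12 h, against 102, 99.2 and 111 CPM in WT livers at 12 h (-0.87, SE 0.315, adjusted p = 0.334). F11 held 31.7, 29.2 and 27.2 CPM in KO livers at 12 h, against 43.3, 38.1 and 48.2 CPM in WT livers at 12 h (-0.56, SE 0.158, adjusted p = 0.164). F7 stood at -0.55 (SE 0.185, adjusted p = 0.279). Except for Ggcx none of the 11 passed the test over all genes, and 9 members had an unadjusted p under 0.05, each lower in KO, as did 5.03% of all genes. The 26 hepatocyte factors outside the vitamin K enzymes had a median log2 fold change of -0.18 at 12 h, beside 0.01 over all genes.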

How the data were processed

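The deposited files hold counts per gene made by the authors with STAR against mm39, per the submitters' processing notes; the sources used here name neither the STAR version nor the annotation. The files give unstranded counts, used here, and counts by strand. Counting assigned 17.6 to 22.5% of reads to genes, while 26.3 to 30.8% were ambiguous between genes and 21.2 to 22.7% met no gene, rows left out of library sizes. The unstranded count leaves out reads where genes of both strands overlap, so strands were also read apart.

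Counts were scaled by TMM and tested with edgeR 4.0.16 in R 4.3.3 (quasi-likelihood, robust, a mean per group, all 24 libraries, genes passing edgeR's low-count filter), with Benjamini-Hochberg adjustment over 13204 genes in each of 13 comparisons. Steps were tested on simulated data. DESeq2 1.42.0 was an alternative, as were other scalings, filters, strands, a replicate block and leaving out libraries. The labels give individual mice, so p-values rest on the spread between mice, which the fit shares per gene over the 8 groups. It does not measure the spread of any group alone. For Fga the SD was 2675 CPM in WT 3 h livers and 88.8 CPM in KO 3 h livers. Replicate numbers did not pair the libraries.

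Members and lists were chosen with earlier results of these data known. Values per library are given for members called between genotypes, for up to 3 members of each role with the smallest p among responses, for genes of other cells, and, chosen after their values were seen, for F7 and Proz. Promoters came from RefSeq (GRCm38.p6). Some further genes of the lists are not reported here.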

Additional observations from a re-analysis of the deposited data

Results flagged for a closer look

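The response of Ggcx at 12 h differed between genotypes by the test of the difference itself, at -1.05 on the log2 scale in KO minus WT (SE 0.186, edgeR adjusted p = 0.0213). On the strand of Ggcx alone the difference was -0.15 (adjusted p = 0.837).

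Reads on the strand opposite Ggcx, which the comparisons of Ggcx do not use by strand, averaged 26.3 CPM in WT livers at 12 h and 0.357 CPM in WT livers at 0 h.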

How the results depend on the processing

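The share of all genes called moved with the setting too and is not given for each. Counts of members called moved by over 1.5 times as follows. With no low-count filter, 7 were called at 1 h in WT, 5 at 3 h in KO, 1 in KO against WT at 1 h and 6 in the difference of responses at 3 h. DESeq2 called 2 at 1 h in KO, where it called 7.00% of all genes. It called 6 in the difference at 3 h, where it called 1.01% of the genes given an adjusted p. Fits of the compared groups alone called 5 at 3 h in WT, 7 at 3 h in KO, 1 in KO against WT at 3 h and 0 at 12 h. Own-strand counts called 2 at 12 h in WT, 0 in KO against WT at 12 h and 0 in the difference at 12 h. Library size alone, which moved the median of all genes by -0.254 in KO and -0.355 in WT livers at 12 h, called 17 at 12 h in KO (1 higher, 16 lower), 11 in WT (2 higher, 9 lower), 0 in KO against WT and 0 in the difference at 12 h. Without WT 3 h replicates 2 and 3, 1 was called at 3 h in WT and 0 in KO against WT at 3 h; directions turned for Kng1 (-0.19), Serpina10 (-0.08) and Fgl1 (-0.02) in WT and Fga (0.06) in KO against WT. Own-strand counts turned Ggcx to -0.26 in WT at 12 h and 0.20 in KO against WT. The cause was not tested. Leaving out 1 library at a time gave 0 to 4 at 1 h, 1 to 3 at 3 h and 7 to 10 at 12 h in KO, 0 to 3, 7 to 16 and 3 to 3 in WT, 0 to 0, 0 to 0, 0 to 15 and 0 to 1 in KO against WT at 0, 1, 3 and 12 h, and 0 to 0, 0 to 12 and 0 to 1 in the differences at 1, 3 and 12 h. A replicate block changed the count at 1 h in WT to 5 and no other count, and ended the call of F5 in WT at 12 h (-0.29, adjusted p = 0.0562); same-numbered libraries correlated at -0.168 to 0.152 over 30 pairs. Of 673 values under alternatives for 46 called results, 494 kept direction and call, 173 kept direction alone and 6 turned.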

Other observations

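Of 6 transcription factor genes that hepatocytes use at the promoters of clotting genes, 2 were higher and 2 lower in KO livers at 12 h against 0 h, and 3 were higher and 1 lower in WT livers at 12 h. Cebpd, induced in the acute phase response, rose by 1.86 on the log2 scale in KO livers (edgeR adjusted p = 7.54e-09) and by 1.26 in WT livers (5.47e-06), and Cebpb rose by 1.29 in KO livers (1.29e-06) and by 1.09 in WT livers (1.55e-05). Foxa2 was lower by 1.07 in KO livers (0.0108) and by 1.30 in WT livers (0.00417). Hnf4a, which sustains the expression of many hepatocyte clotting factors, was called lower in KO livers, by 0.39 (0.00831). The difference of responses at 12 h was called for 0 of the 6 genes, and KO against WT livers at 12 h for 0 of the 6. Their part in the levels of the clotting genes was not tested.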
